A study of Mus musculus with 10 samples.

Results

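The genes described here are 31 sterol and fatty acid synthesis genes. They comprise 6 genes of the mevalonate steps, 11 of the squalene and sterol steps, 4 regulators and sterol transporters, 6 genes of fatty acid synthesis and 4 desaturases. They were listed by name from knowledge of the pathway, with earlier results of these data known. Their counts therefore describe these data and are not an independent test. Each was read from the probe set annotated to that symbol alone that had the highest mean over the arrays, and all 31 were measured among 18193 genes. RNA came from embryonic stem cells of C57BL/6 mice that had been differentiating for 8, 17 or 24 days, and was hybridised to Affymetrix arrays, 1 array per condition. At day 8 there was a culture with KGF (keratinocyte growth factor, or FGF7, which drives epithelial growth) and a control. At days 17 and 24 there were cultures with KGF and DCI, with DCI, with KGF, and a control. DCI is read here as the dexamethasone and elevated cAMP of the series title, which places the work in the making of alveolar type II cells, the lung cells that secrete surfactant. The labels do not spell the abbreviation out. The labels name no cell line or clone, and no group has a replicate array.

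Sterols are built from acetyl-CoA through mevalonate, isoprenoid units, squalene and a chain of sterol intermediates, and fatty acids from the same precursor through malonyl-CoA. The transcription factors SREBP, encoded by Srebf1 and Srebf2, switch on both branches when membrane sterol is low. INSIG proteins hold them in the endoplasmic reticulum when sterol is ample. SREBPs bind sterol response elements and act together with NF-Y, which binds CCAAT boxes in the promoters of many of these genes. In fetal lung, type II cells make fatty acids for the phosphatidylcholine of surfactant, and glucocorticoid and KGF are both known to raise fatty acid synthase there.

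The promoters of 6 of the genes are shown because the results turn on them. Acss2, Mvd, Insig1 and Lss had the largest rises with DCI, Fads2 was the gene that fell with DCI, and Hmgcs1 held the sterol response element that was searched for; the 6 were picked with these values known. Each is the 250 bases before the annotated start in RefSeq's table for build GRCm38.p6, written 5′ to 3′ on the gene's strand. Capitals mark CCAAT on either strand (ATTGG when it lies on the other strand) and TCACNCCAC, the form of the sterol response element searched. The intervals are chr2:155517793-155518042 (plus strand), chr8:122443423-122443672 (minus), chr5:28071162-28071411 (plus), chr10:76531355-76531604 (plus), chr13:119690101-119690350 (plus) and chr19:10101504-10101753 (minus).
Acss2: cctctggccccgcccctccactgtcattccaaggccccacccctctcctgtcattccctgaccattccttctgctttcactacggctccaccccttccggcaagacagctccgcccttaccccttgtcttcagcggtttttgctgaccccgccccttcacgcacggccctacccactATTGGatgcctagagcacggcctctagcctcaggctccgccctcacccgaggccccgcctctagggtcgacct
Mvd: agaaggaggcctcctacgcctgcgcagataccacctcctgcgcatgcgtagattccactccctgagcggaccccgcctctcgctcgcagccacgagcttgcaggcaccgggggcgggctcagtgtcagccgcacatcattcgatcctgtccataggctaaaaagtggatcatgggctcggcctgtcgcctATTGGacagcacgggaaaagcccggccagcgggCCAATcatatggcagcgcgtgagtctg
Insig1: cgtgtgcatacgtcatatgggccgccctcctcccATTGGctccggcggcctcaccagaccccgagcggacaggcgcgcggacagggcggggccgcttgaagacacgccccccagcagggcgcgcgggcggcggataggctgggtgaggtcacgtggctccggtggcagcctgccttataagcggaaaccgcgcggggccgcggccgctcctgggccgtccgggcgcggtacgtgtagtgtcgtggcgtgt
Lss: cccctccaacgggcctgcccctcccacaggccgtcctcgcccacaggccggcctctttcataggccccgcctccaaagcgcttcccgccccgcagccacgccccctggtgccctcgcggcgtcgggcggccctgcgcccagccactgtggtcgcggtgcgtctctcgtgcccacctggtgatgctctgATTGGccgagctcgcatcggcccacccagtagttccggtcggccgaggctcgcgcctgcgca
Hmgcs1: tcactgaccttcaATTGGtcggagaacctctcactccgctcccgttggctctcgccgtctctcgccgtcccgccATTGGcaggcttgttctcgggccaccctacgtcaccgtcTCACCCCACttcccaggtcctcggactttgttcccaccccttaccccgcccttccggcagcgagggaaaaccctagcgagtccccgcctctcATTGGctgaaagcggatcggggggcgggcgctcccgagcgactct
Fads2: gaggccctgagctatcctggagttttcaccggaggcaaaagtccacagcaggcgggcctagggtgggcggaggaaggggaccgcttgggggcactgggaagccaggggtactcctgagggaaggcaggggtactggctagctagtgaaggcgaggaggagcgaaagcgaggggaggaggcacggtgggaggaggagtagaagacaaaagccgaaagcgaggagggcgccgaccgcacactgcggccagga

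The table held promoters of 24 of the 31 genes (30 promoters), and Fdps, Fdft1, Sqle, Stard4, Scd1, Scd2 and Fads1 were not in it. A CCAAT box on either strand lay within the 250 bases for 20 of the 24 genes (83.3%), against 5688 of the 14452 array genes with a promoter (39.4%). The 4 without one were the lipid genes Acaca, Acly, Elovl6 and Fads2. In the promoters shown, Acss2, Insig1 and Lss hold 1, Mvd holds 2 and Hmgcs1 holds 3. In Acss2, Mvd, Lss and Hmgcs1 a box begins 73, 60, 62 and 45 bases before the start, while in Insig1 it begins 216 bases before it. TCACNCCAC occurred for Hmgcs1 alone (4.17%), 137 bases before the start and clear of the CCAAT boxes, against 1.27% of array genes. The E-box CACGTG, a kind of site that SREBPs can also bind, occurred for Dhcr7, Hsd17b7, Insig1 and Sc5d (16.7%, against 8.73%). The full cAMP response element TGACGTCA occurred for none of the 24, against 2.5% of array genes. Neither of the last motifs contains CCAAT or TCACNCCAC or lies within them. Their ends share letters with TCACNCCAC, so that partial overlap is possible, and it was not tested. No match shows only that the letters are not in that window.

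All values are on the log2 scale that the authors deposited, so that a difference of 1 is a 2-fold change in signal. Each is relative within its own array, since quantile normalisation matches the distributions of the arrays to one another. Mean levels of the 31 probe sets ran from 6.90 (Mvk) to 11.84 (Scd2), with a median of 8.60. The median of all values of the 18193 genes, each read from its brightest probe set, was 6.67. All 31 means lay above that median, while single values of Mvk and Acss2 went below it, to 6.29 and 6.38. With 1 array per condition, differences were tested in a limma model with additive terms for day, KGF and DCI over the 10 arrays. Errors are standard errors of that fit, and a gene passed at a Benjamini-Hochberg adjusted p under 0.05 over all 18193 genes. The p-values measure only the spread between these arrays, and their number limits the precision. RNA came from whole cultures, in which fewer cells of a type and less RNA per cell cannot be told apart. The label calls the cells embryonic stem cells, and the 6 pluripotency markers were mixed. Pou5f1, Zfp42 and Esrrb lay below that median of 6.67 on each of the 10 arrays (Pou5f1 between 3.93 and 6.24). Nanog ran from 4.48 to 6.85, and Sox2 (7.39 to 8.86) and Dppa5a (6.78 to 9.36) lay above the median. One array, the day 8 control, was unlike the rest in its control signals. Its difference between the 3′ and 5′ probe sets of Actb was 1.05, against 0.46 to 0.62 on the other arrays, and that of the dap spike-in was 5.34, against 1.49 to 3.0. The counts of members and of lists at day 17 against day 8 are therefore also given without it.

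The strongest pattern was in time. At day 17, 28 of the 31 genes were lower than at day 8 and none was higher, by the additive fit. Of all genes on the arrays, 21.0% were lower and 21.4% were higher in this comparison, and of the 8559 genes at least as bright on average as the dimmest member, 31.4% and 27.1%. The median difference of the 31 was -1.15, against -0.020 over all genes. Every one of the 5 groups took part, with 6 of 6 mevalonate genes, 9 of 11 squalene and sterol genes, 4 of 4 regulators, 5 of 6 fatty acid synthesis genes and 4 of 4 desaturases lower. The differences ran from -2.21 for Scd1 to -0.020 for Ebp. The 3 that did not pass were Ebp, Sc5d (-0.36 ± 0.17 (adjusted p = 0.118)) and Me1 (-0.20 ± 0.082 (adjusted p = 0.076)). Without the day 8 control array 28 genes were lower, 27 of them the same genes. Acss2 was then the call that was lost (adjusted p = 0.0934, difference -0.47), and Sc5d the call that was gained (adjusted p = 0.0343, difference -0.63). The differences of the 31 genes then shifted by between -0.27 and 0.32. Using only the 6 arrays without DCI, all 28 remained. Between days 17 and 24, 18 of the 31 genes did not pass in either direction. At day 24, 7 of 31 were higher than at day 17 and 6 were lower, against 14.8% and 22.5% of all genes. The 7 were sterol genes together with the malic enzyme gene Me1: Insig1, Msmo1, Sc5d, Me1, Ebp, Mvd and Hmgcs1. The 6 were Elovl6, Fads2, Acaca, Fasn, Scd2 and Pmvk, of which all but Pmvk act on fatty acids. Of the bright genes 15.4% were higher and 34.6% were lower, so that the 6 lower members were a smaller share than the background. The count of 7 was 3 without the day 17 DCI array, 4 without the day 24 control array and 4 without the day 24 array with KGF and DCI. On the 6 arrays without DCI it was 2, Insig1 and Msmo1. Of the 13 calls in both directions, 8 passed with each array left out in turn and 5 were lost at least once. Neither count is read here as a result about the 31 genes as a set.

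**Figure D1:**
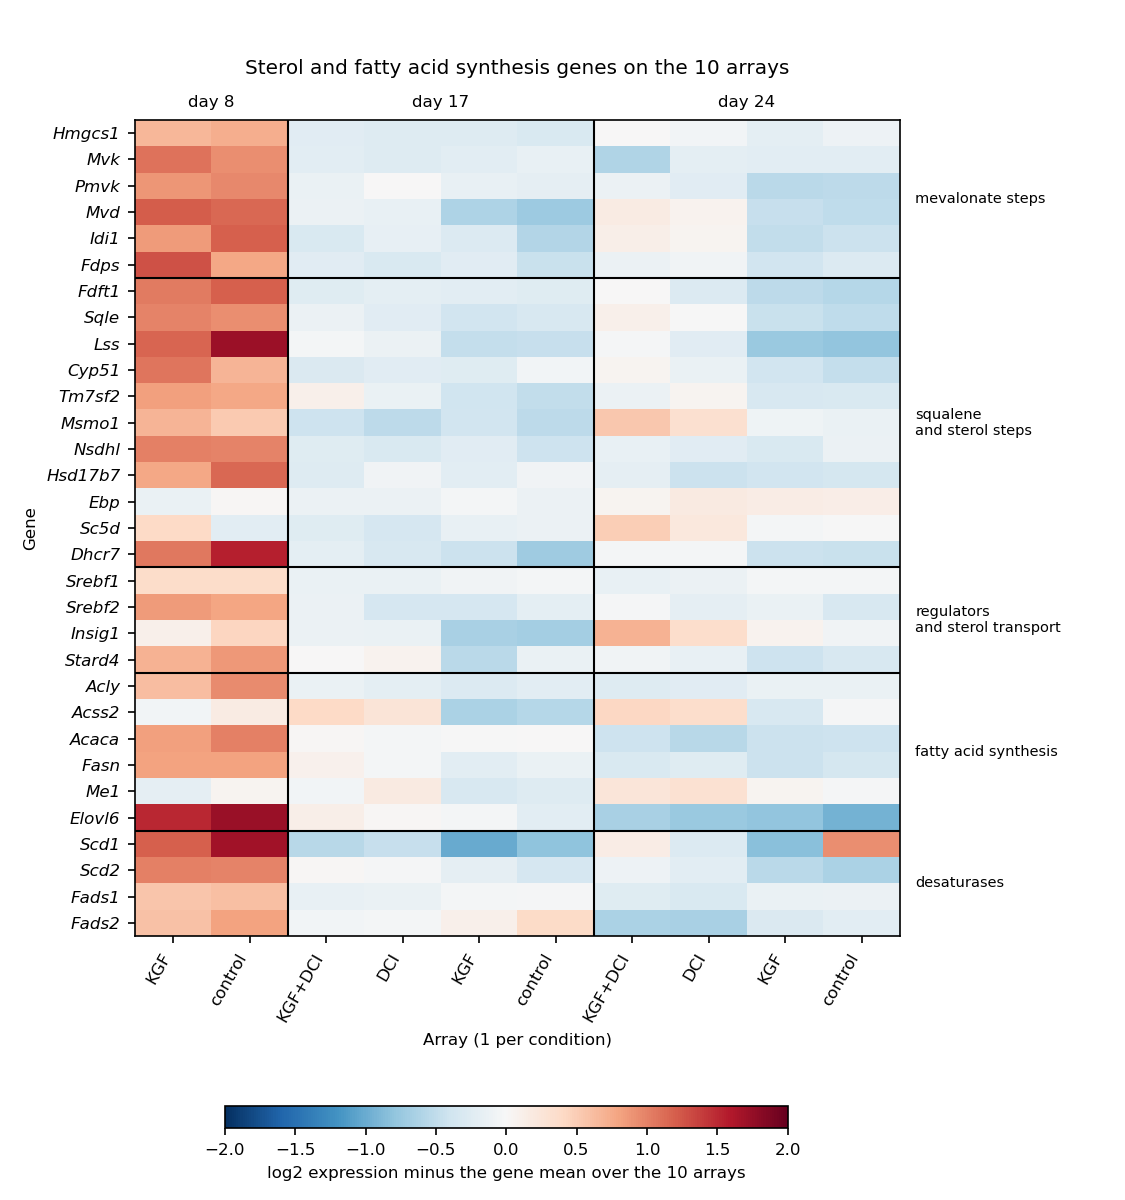
Heat map of the 31 genes (rows, grouped by role) on the 10 arrays (columns, grouped by day, 1 array per condition). Colour is log2 expression minus the gene's mean over the 10 arrays, red above and blue below it. Most genes are red on both day 8 arrays, and Ebp, Sc5d, Me1 and Acss2 are the palest there.

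**Figure D2:**
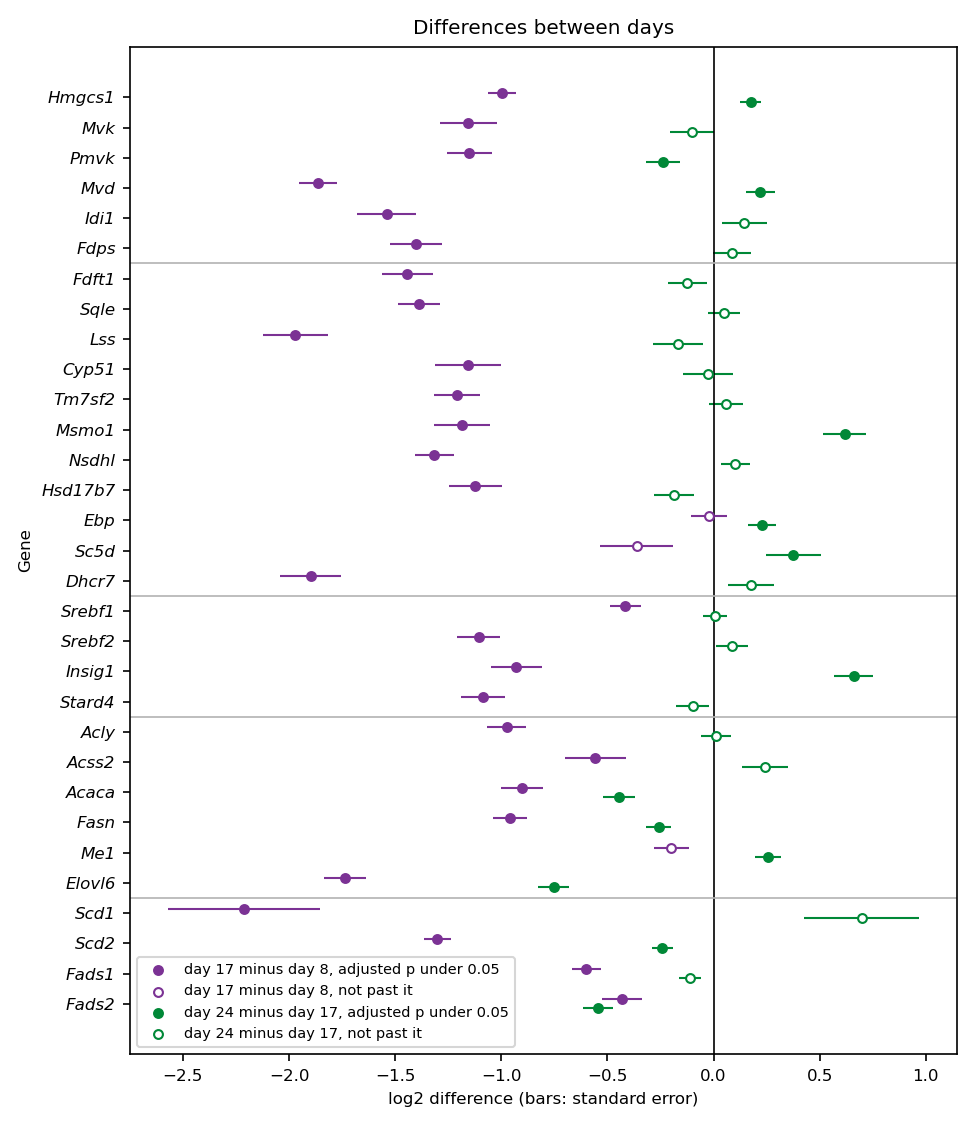
Differences between days for each gene on the log2 scale, from the additive limma fit, with standard errors as bars. Filled points passed an adjusted p under 0.05 and open points did not. Day 17 minus day 8 (purple) lies below 0 for all 31 genes, and day 24 minus day 17 (green) runs from -0.75 for Elovl6 to 0.70 for Scd1.

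With DCI, 10 of the 31 genes rose and 1 fell in the additive fit, against 7.27% and 8.09% of all genes. The 10 were Acss2, Mvd, Insig1, Lss, Idi1, Tm7sf2, Sqle, Scd2, Stard4 and Me1, with differences from 0.74 down to 0.30, and the 1 was Fads2 at -0.34. The median of the 31 was 0.16, against -0.0054 for all genes, and 24 of 31 lay above 0. Among the 8559 bright genes, 9.87% rose and 11.0% fell. Acss2 was the only one of the 10 to exceed a 1.5-fold difference. The count of 10 was 6 without the day 24 control array, where Idi1, Sqle, Lss and Stard4 no longer passed, with adjusted p-values from 0.0548 to 0.127. Of the 11 calls, 6, those of Mvd, Insig1, Acss2, Me1, Scd2 and Fads2, passed with each of the 10 arrays left out in turn. The other probe sets of Mvd, Me1, Scd2 and Fads2 did not pass for DCI, as given below.

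Among the mevalonate steps, Mvd and Idi1 carried the response to DCI. Mvd encodes mevalonate diphosphate decarboxylase, which makes the first isoprenoid unit. At day 17 Mvd read 7.27 with KGF and DCI, 7.24 with DCI, 6.77 with KGF and 6.67 in the control, against 8.60 with KGF and 8.54 in the control at day 8. At day 24 Mvd read 7.55 with KGF and DCI, 7.46 with DCI, 6.93 with KGF and 6.88 in the control. By this brightest probe set the pair of arrays with DCI lay above the pair without it on both days. All of these lay below day 8. Mvd fell by 1.87 ± 0.090 (adjusted p = 6.84e-08) at day 17 relative to day 8, differed by 0.22 ± 0.068 (adjusted p = 0.028) between days 24 and 17, and rose with DCI by 0.57 ± 0.068 (adjusted p = 0.00032), a 1.48-fold change. Its rise at day 24 was lost without any one of 6 arrays (adjusted p up to 0.0973, without the day 17 array with KGF and DCI). Idi1, the isomerase of the isoprenoid units, read 9.13 with KGF and DCI, 9.27 with DCI, 9.16 with KGF and 8.83 in the control at day 17, against 10.28 with KGF and 10.62 in the control at day 8. At day 24 Idi1 read 9.55 with KGF and DCI, 9.48 with DCI, 8.94 with KGF and 9.0 in the control. The arrays with DCI stood above the others at day 24, while at day 17 they overlapped, since KGF alone read above KGF with DCI. Idi1 fell by 1.54 ± 0.14 (adjusted p = 6.94e-06) at day 17 relative to day 8 and rose with DCI by 0.37 ± 0.10 (adjusted p = 0.0357). That call was the weakest of the 11: it was lost without any one of 6 arrays (day 17 control and DCI, and each of the day 24 arrays), with an adjusted p up to 0.127.

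The other mevalonate genes moved mainly in time. Fdps, for farnesyl diphosphate synthase, read 9.26 with KGF and DCI, 9.18 with DCI, 9.25 with KGF and 9.04 in the control at day 17, against 10.75 with KGF and 10.26 in the control at day 8, and fell by 1.40 ± 0.12 (adjusted p = 5.1e-06). Mevalonate kinase, Mvk, read 6.69 with KGF and DCI, 6.64 with DCI, 6.69 with KGF and 6.75 in the control at day 17, against 7.99 with KGF and 7.83 in the control at day 8, and fell by 1.16 ± 0.13 (adjusted p = 4.93e-05). Neither gene's day 17 values reached its day 8 values. Fdps differed with DCI by 0.16 ± 0.091 (adjusted p = 0.316) and Mvk by -0.12 ± 0.10 (adjusted p = 0.505), which did not pass. Hmgcs1 encodes HMG-CoA synthase, which makes the precursor of mevalonate. At day 24 Hmgcs1 read 11.15 with KGF and DCI, 11.08 with DCI, 10.94 with KGF and 11.03 in the control, against 10.91 with KGF and DCI, 10.88 with DCI, 10.89 with KGF and 10.83 in the control at day 17. All 4 values at day 24 exceeded all 4 at day 17, a rise of 0.17 ± 0.049 (adjusted p = 0.0173) after a difference of -1.0 ± 0.065 between days 17 and 8 (adjusted p = 5.67e-07). The rise was lost without any one of 4 arrays (adjusted p up to 0.0685, without the day 17 DCI array). With DCI it differed by 0.084 ± 0.049 (adjusted p = 0.315). Between days 24 and 17 the other bright Hmgcs1 probe sets were mixed. Those with means of 11.05 and 8.84 differed by 0.255 and 0.365 (adjusted p = 0.00451 and 0.237 over all probe sets). That with a mean of 10.91 differed by -0.17 (adjusted p = 0.0682). The phosphomevalonate kinase gene Pmvk read 7.60 with KGF and DCI, 7.49 with DCI, 7.18 with KGF and 7.18 in the control at day 24, against 7.58 with KGF and DCI, 7.71 with DCI, 7.57 with KGF and 7.54 in the control at day 17. The groups overlapped through the arrays with KGF and DCI, and the day difference of -0.24 ± 0.081 (adjusted p = 0.0402) was lost without any one of 6 arrays, with an adjusted p up to 0.129 without the day 24 control.

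In the squalene and sterol steps, Lss responded most to DCI. It encodes lanosterol synthase, which closes the sterol rings. At day 17 Lss read 7.85 with KGF and DCI, 7.79 with DCI, 7.42 with KGF and 7.44 in the control, against 9.06 with KGF and 9.61 in the control at day 8. At day 24 Lss read 7.88 with KGF and DCI, 7.67 with DCI, 7.16 with KGF and 7.11 in the control. The arrays with DCI lay above those without it on both days. Lss fell by 1.97 ± 0.15 (adjusted p = 2.44e-06) between days 8 and 17, a 3.92-fold difference, and rose with DCI by 0.52 ± 0.12 (adjusted p = 0.0133). Sqle, the squalene epoxidase gene, read 9.47 with KGF and DCI, 9.36 with DCI, 9.21 with KGF and 9.28 in the control at day 17, against 10.58 with KGF and 10.51 in the control at day 8. At day 24 Sqle read 9.69 with KGF and DCI, 9.59 with DCI, 9.14 with KGF and 9.09 in the control. Here too the DCI arrays were higher on both days. Sqle fell by 1.39 ± 0.10 (adjusted p = 1.25e-06) between days 8 and 17 and rose with DCI by 0.35 ± 0.076 (adjusted p = 0.0112). Tm7sf2, a sterol reductase gene, read 7.65 with KGF and DCI, 7.42 with DCI, 7.14 with KGF and 7.06 in the control at day 17. At day 24 Tm7sf2 read 7.44 with KGF and DCI, 7.60 with DCI, 7.23 with KGF and 7.25 in the control, and at day 8 it read 8.37 with KGF and 8.33 in the control. Its DCI arrays were higher on both days, and it rose with DCI by 0.36 ± 0.082 (adjusted p = 0.0144), and its difference between days 17 and 8 was -1.21 ± 0.11 (adjusted p = 6.71e-06). The Tm7sf2 and Sqle calls for DCI were each lost without 2 arrays. For Tm7sf2 these were the day 17 array with KGF and DCI and the day 24 DCI array (adjusted p = 0.0567 and 0.0581), and for Sqle the day 24 control and DCI arrays (adjusted p = 0.0548 and 0.0505).

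Msmo1, the methylsterol monooxygenase gene, behaved otherwise. At day 17 Msmo1 read 9.35 with KGF and DCI, 9.24 with DCI, 9.39 with KGF and 9.24 in the control, against 10.44 with KGF and 10.28 in the control at day 8. At day 24 Msmo1 read 10.30 with KGF and DCI, 10.09 with DCI, 9.68 with KGF and 9.62 in the control. The 4 arrays of day 17 overlapped, whereas at day 24 both arrays with DCI lay above both without it, and near the day 8 values. Msmo1 rose by 0.62 ± 0.10 (adjusted p = 0.00087) between days 17 and 24. Averaged over both days it differed with DCI by 0.26 ± 0.10 (adjusted p = 0.117), which did not pass. Fdft1, for squalene synthase, read 9.94 with KGF and DCI, 9.66 with DCI, 9.41 with KGF and 9.37 in the control at day 24, against 9.69 with KGF and DCI, 9.75 with DCI, 9.73 with KGF and 9.70 in the control at day 17 and 10.98 with KGF and 11.13 in the control at day 8. Dhcr7, the reductase of the last step of one branch, read 8.04 with KGF and DCI, 7.91 with DCI, 7.81 with KGF and 7.52 in the control at day 17, against 9.30 with KGF and 9.79 in the control at day 8. At day 24 Dhcr7 read 8.20 with KGF and DCI, 8.19 with DCI, 7.80 with KGF and 7.80 in the control. Both fell between days 8 and 17, Fdft1 by 1.44 ± 0.12 (adjusted p = 4.12e-06) and Dhcr7 by 1.90 ± 0.14 (adjusted p = 1.81e-06). Over both days they differed with DCI by 0.21 ± 0.092 (adjusted p = 0.173) and 0.35 ± 0.11 (adjusted p = 0.0523), Dhcr7 just short of the threshold with higher DCI arrays on each day.

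Sc5d, a sterol desaturase gene, and Ebp, a sterol isomerase gene, did not pass between days 17 and 8 by their brightest probe sets. A further Sc5d probe set, with a mean of 7.52, was lower at day 17 by that comparison (difference -0.58, adjusted p = 0.000765 over all probe sets). Sc5d read 8.64 with KGF and DCI, 8.55 with DCI, 8.74 with KGF and 8.78 in the control at day 17, against 9.29 with KGF and 8.68 in the control at day 8. At day 24 Sc5d read 9.39 with KGF and DCI, 9.10 with DCI, 8.86 with KGF and 8.88 in the control. Ebp stayed between 8.22 and 8.54 on all 10 arrays. At day 24 Ebp read 8.41 with KGF and DCI, 8.54 with DCI, 8.51 with KGF and 8.49 in the control, against 8.23 with KGF and DCI, 8.24 with DCI, 8.32 with KGF and 8.23 in the control at day 17. For both genes all day 24 values exceeded all day 17 values, with rises of 0.38 ± 0.13 (adjusted p = 0.0422) for Sc5d and 0.23 ± 0.065 (adjusted p = 0.0183) for Ebp. The Sc5d call was lost without any one of 6 arrays, with an adjusted p up to 0.141 without the day 17 array with KGF and DCI, and that of Ebp without any one of 3, up to 0.065 without the day 24 DCI array. The remaining 3 genes of these steps were Cyp51 (lanosterol demethylase), Nsdhl and Hsd17b7 (which act on the sterol ring after the Cyp51 step). They had differences of -1.16, -1.32 and -1.12 between days 17 and 8, which passed. With DCI they differed by between 0.017 and 0.14, which did not pass.

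**Figure D3:**
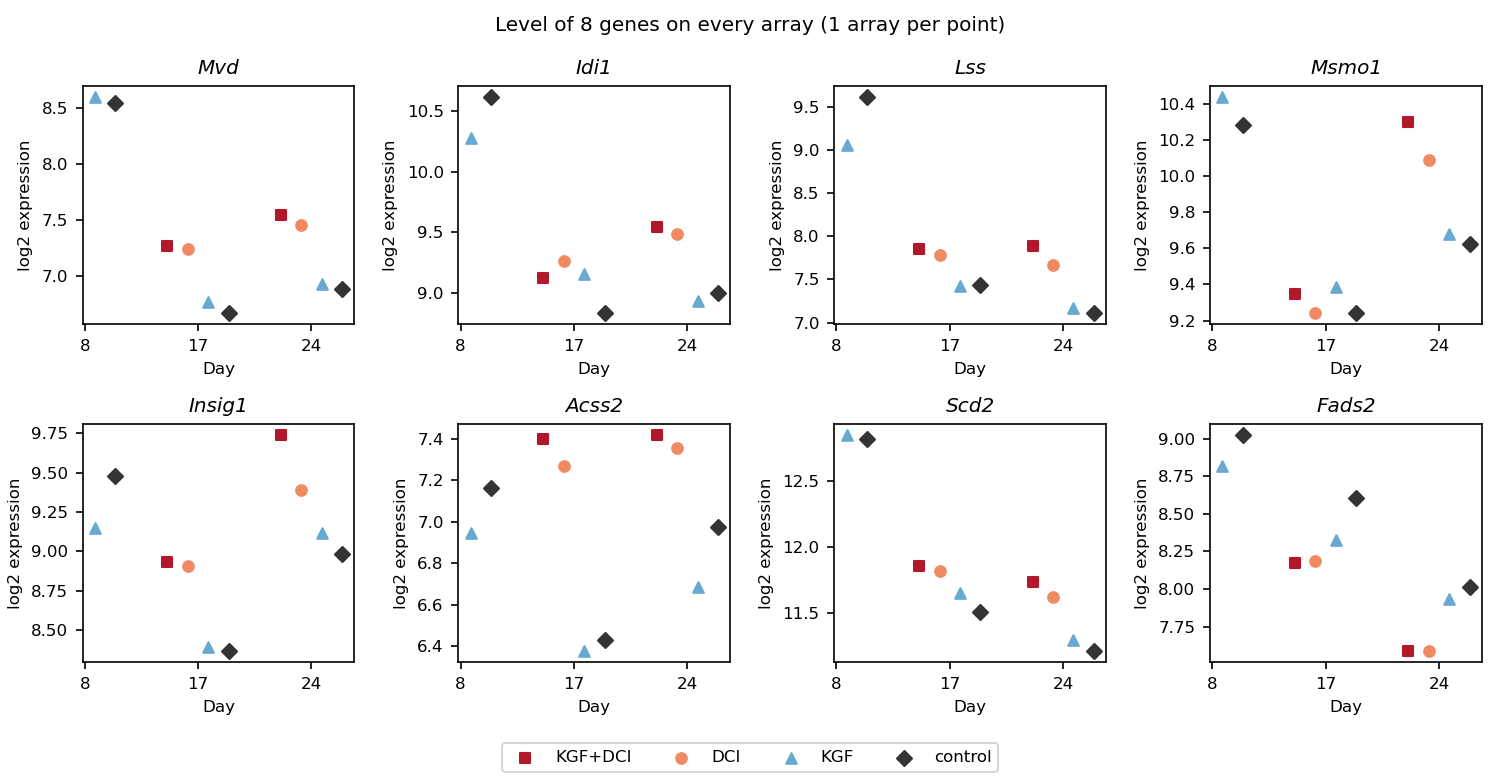
Log2 expression of 8 genes (1 panel each) by day, with 1 point per array, spread sideways by treatment: KGF with DCI (red squares), DCI (orange circles), KGF (blue triangles) and control (dark diamonds). Axes of the panels differ. Each gene is shown by its brightest probe set. Mvd, Lss, Insig1, Acss2 and Scd2 have both DCI points above the others on each day. Idi1 and Msmo1 have them above on day 24, and Fads2 has them below on each day. At day 17 other probe sets of Mvd and Scd2 did not show this.

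The regulators differed from one another. Srebf1, whose product drives fatty acid synthesis genes, read 8.42 with KGF and DCI, 8.42 with DCI, 8.48 with KGF and 8.52 in the control at day 17, against 8.92 with KGF and 8.92 in the control at day 8. At day 24 Srebf1 read 8.40 with KGF and DCI, 8.44 with DCI, 8.52 with KGF and 8.51 in the control. Srebf2, whose product drives sterol genes, read 7.92 with KGF and DCI, 7.71 with DCI, 7.72 with KGF and 7.85 in the control at day 17, against 8.90 with KGF and 8.84 in the control at day 8. At day 24 Srebf2 read 8.02 with KGF and DCI, 7.88 with DCI, 7.92 with KGF and 7.73 in the control. Srebf2 fell by 1.11 ± 0.10 (adjusted p = 7.04e-06) between days 8 and 17 and Srebf1 by 0.42 ± 0.073 (adjusted p = 0.000914). With DCI neither passed. Srebf1 differed by -0.083 ± 0.055 (adjusted p = 0.386), its DCI arrays being slightly lower on both days, and Srebf2 by 0.077 ± 0.075 (adjusted p = 0.582), with overlapping arrays. The 95% intervals of these differences ran from -0.21 to 0.040 for Srebf1 and from -0.090 to 0.24 for Srebf2. SREBP activity is set largely by cleavage of the protein, which transcript levels do not measure. Insig1, which encodes a protein that retains SREBP and is itself an SREBP target, read 8.93 with KGF and DCI, 8.91 with DCI, 8.39 with KGF and 8.36 in the control at day 17, against 9.15 with KGF and 9.48 in the control at day 8. At day 24 Insig1 read 9.74 with KGF and DCI, 9.39 with DCI, 9.12 with KGF and 8.98 in the control. DCI arrays were higher on both days, and every day 24 array was above its day 17 counterpart. Insig1 fell by 0.93 ± 0.12 (adjusted p = 0.000109) between days 8 and 17, rose by 0.66 ± 0.091 (adjusted p = 0.000324) between days 17 and 24, and rose with DCI by 0.53 ± 0.091 (adjusted p = 0.00309). With KGF and DCI at day 24 it stood above both day 8 arrays. Stard4, for a sterol transfer protein, read 8.93 with KGF and DCI, 8.98 with DCI, 8.38 with KGF and 8.79 in the control at day 17, against 9.61 with KGF and 9.78 in the control at day 8. At day 24 Stard4 read 8.84 with KGF and DCI, 8.76 with DCI, 8.49 with KGF and 8.59 in the control. It fell by 1.08 ± 0.10 (adjusted p = 1.04e-05) between days 8 and 17 and rose with DCI by 0.32 ± 0.078 (adjusted p = 0.02), with higher DCI arrays on both days. That call was lost without any one of 5 arrays (day 17 KGF, DCI and KGF with DCI, and day 24 control and KGF with DCI), with an adjusted p up to 0.0716.

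In fatty acid synthesis, Acss2 and Me1 rose with DCI and the other 4 genes did not pass. Acss2 encodes the enzyme that makes acetyl-CoA from acetate. At day 17 Acss2 read 7.40 with KGF and DCI, 7.27 with DCI, 6.38 with KGF and 6.43 in the control, against 6.95 with KGF and 7.16 in the control at day 8. At day 24 Acss2 read 7.42 with KGF and DCI, 7.35 with DCI, 6.69 with KGF and 6.98 in the control. All 4 arrays with DCI were above all 6 without it. Acss2 rose with DCI by 0.74 ± 0.11 (adjusted p = 0.00105), or 1.67-fold, the largest DCI difference of the 31 genes. Between days 8 and 17 its difference was -0.56 ± 0.14 (adjusted p = 0.00898). Me1, for the malic enzyme that yields NADPH, read 10.15 with KGF and DCI, 10.40 with DCI, 9.89 with KGF and 9.96 in the control at day 17, against 10.03 with KGF and 10.26 in the control at day 8. At day 24 Me1 read 10.46 with KGF and DCI, 10.52 with DCI, 10.27 with KGF and 10.19 in the control. Within each day the arrays with DCI were above those without it. Me1 rose with DCI by 0.30 ± 0.062 (adjusted p = 0.00796) and between days 17 and 24 by 0.26 ± 0.062 (adjusted p = 0.00823). Fasn, fatty acid synthase, read 8.83 with KGF and DCI, 8.71 with DCI, 8.54 with KGF and 8.61 in the control at day 17, against 9.56 with KGF and 9.56 in the control at day 8. At day 24 Fasn read 8.45 with KGF and DCI, 8.50 with DCI, 8.32 with KGF and 8.39 in the control. Its DCI arrays were slightly higher on both days, but the DCI difference of 0.16 ± 0.060 (adjusted p = 0.119) did not pass. Its 95% interval was 0.022 to 0.29 on the log2 scale. Acaca, acetyl-CoA carboxylase, read 7.65 with KGF and DCI, 7.58 with DCI, 7.62 with KGF and 7.63 in the control at day 17, against 8.45 with KGF and 8.63 in the control at day 8. At day 24 Acaca read 7.22 with KGF and DCI, 7.08 with DCI, 7.20 with KGF and 7.21 in the control. The ATP citrate lyase gene Acly read 10.26 with KGF and DCI, 10.20 with DCI, 10.12 with KGF and 10.18 in the control at day 17, against 11.01 with KGF and 11.34 in the control at day 8. Neither passed for DCI, with differences of -0.037 ± 0.075 (adjusted p = 0.816) for Acaca and -0.014 ± 0.071 (adjusted p = 0.935) for Acly.

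Elovl6, which lengthens newly made fatty acids, changed most in time among these. At day 17 Elovl6 read 8.71 with KGF and DCI, 8.62 with DCI, 8.57 with KGF and 8.40 in the control, against 10.11 with KGF and 10.33 in the control at day 8. At day 24 Elovl6 read 7.95 with KGF and DCI, 7.86 with DCI, 7.81 with KGF and 7.66 in the control. The 3 days did not overlap. Elovl6 fell by 1.74 ± 0.097 (adjusted p = 1.95e-07) between days 8 and 17 and fell by 0.75 ± 0.074 (adjusted p = 3.05e-05) between days 17 and 24. Fasn and Acaca followed the same course, Fasn with differences of -0.96 ± 0.080 (adjusted p = 3.85e-06) and -0.26 ± 0.060 (adjusted p = 0.00684) and Acaca of -0.90 ± 0.099 (adjusted p = 3.07e-05) and -0.45 ± 0.075 (adjusted p = 0.00103) for the earlier and the later interval. Acly was lower at day 17 than at day 8, with a difference of -0.98 ± 0.094 (adjusted p = 1.15e-05), and between days 24 and 17 it differed by 0.013 ± 0.071 (adjusted p = 0.906), which did not pass.

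The desaturases parted from one another with DCI. Scd2, a stearoyl-CoA desaturase gene, read 11.86 with KGF and DCI, 11.82 with DCI, 11.65 with KGF and 11.51 in the control at day 17, against 12.85 with KGF and 12.82 in the control at day 8. At day 24 Scd2 read 11.74 with KGF and DCI, 11.62 with DCI, 11.30 with KGF and 11.21 in the control. Within each day both DCI arrays were above both others by this brightest probe set. Scd2 rose with DCI by 0.34 ± 0.049 (adjusted p = 0.000937), and its day differences were -1.30 ± 0.065 (adjusted p = 8.25e-08) between days 17 and 8 and -0.24 ± 0.049 (adjusted p = 0.00313) between days 24 and 17. At day 17 the other Scd2 probe sets went the opposite way. The one with a mean of 8.30 read 8.17 with KGF and DCI, 7.97 with DCI, 8.44 with KGF and 8.24 in the control. The dim one, with a mean of 4.99, read 4.48, 4.51, 4.72 and 4.82 in that order. At day 24 the DCI arrays were above the others in both. Fads2, the desaturase of the first step of polyunsaturated fatty acid synthesis, read 8.18 with KGF and DCI, 8.19 with DCI, 8.33 with KGF and 8.61 in the control at day 17, against 8.82 with KGF and 9.03 in the control at day 8. At day 24 Fads2 read 7.59 with KGF and DCI, 7.58 with DCI, 7.93 with KGF and 8.02 in the control. Within each day both DCI arrays were below both others. Fads2 fell by 0.34 ± 0.071 (adjusted p = 0.00966) with DCI, fell by 0.43 ± 0.094 (adjusted p = 0.00361) between days 8 and 17 and fell by 0.54 ± 0.071 (adjusted p = 0.000224) between days 17 and 24. Fads1, the desaturase of a later step in that synthesis, read 9.0 with KGF and DCI, 9.01 with DCI, 9.11 with KGF and 9.13 in the control at day 17, against 9.70 with KGF and 9.75 in the control at day 8. At day 24 Fads1 read 8.90 with KGF and DCI, 8.85 with DCI, 9.02 with KGF and 9.04 in the control. Its DCI arrays were slightly lower on both days, with a difference of -0.13 ± 0.052 (adjusted p = 0.125) that did not pass, and it fell by 0.60 ± 0.069 (adjusted p = 4.3e-05) between days 8 and 17.

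Scd1, the other stearoyl-CoA desaturase gene measured, read 7.77 with KGF and DCI, 7.85 with DCI, 7.30 with KGF and 7.51 in the control at day 17, against 9.51 with KGF and 9.99 in the control at day 8. At day 24 Scd1 read 8.46 with KGF and DCI, 8.04 with DCI, 7.48 with KGF and 9.24 in the control. It fell by 2.21 ± 0.36 (adjusted p = 0.000524) between days 8 and 17, the largest day difference of the 31. The day 24 control array stood out, above every other array of days 17 and 24. With that spread Scd1 had the largest standard error of the 31 for DCI, with a difference of 0.15 ± 0.27 (adjusted p = 0.796). Its other probe set did not show the high day 24 control: it read 5.74 with KGF and DCI, 5.58 with DCI, 4.88 with KGF and 5.50 in the control at day 24, and 6.20 with KGF and DCI, 6.21 with DCI, 5.63 with KGF and 5.10 in the control at day 17. For that probe set alone the DCI difference was 0.66, with an adjusted p of 0.0382 over all probe sets. The adipocyte markers were mixed on the day 24 control array. Of the 6 measured (8 were listed), Adipoq, Cidec and Retn were highest there, and Fabp4, Lep and Pparg were not. Adipoq, an adipocyte hormone gene, read 4.37 with KGF and DCI, 2.91 with DCI, 2.99 with KGF and 6.55 in the control at day 24. Fabp4 read 12.19 with KGF and DCI, 12.24 with DCI, 11.51 with KGF and 11.84 in the control at day 24, and Pparg 7.32 with KGF and DCI, 7.17 with DCI, 6.07 with KGF and 6.26 in the control. The median of the 6 was 4.99 with KGF and DCI, 4.66 with DCI, 4.27 with KGF and 6.08 in the control at day 24. Their part in the Scd1 value was not tested.

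**Figure D4:**
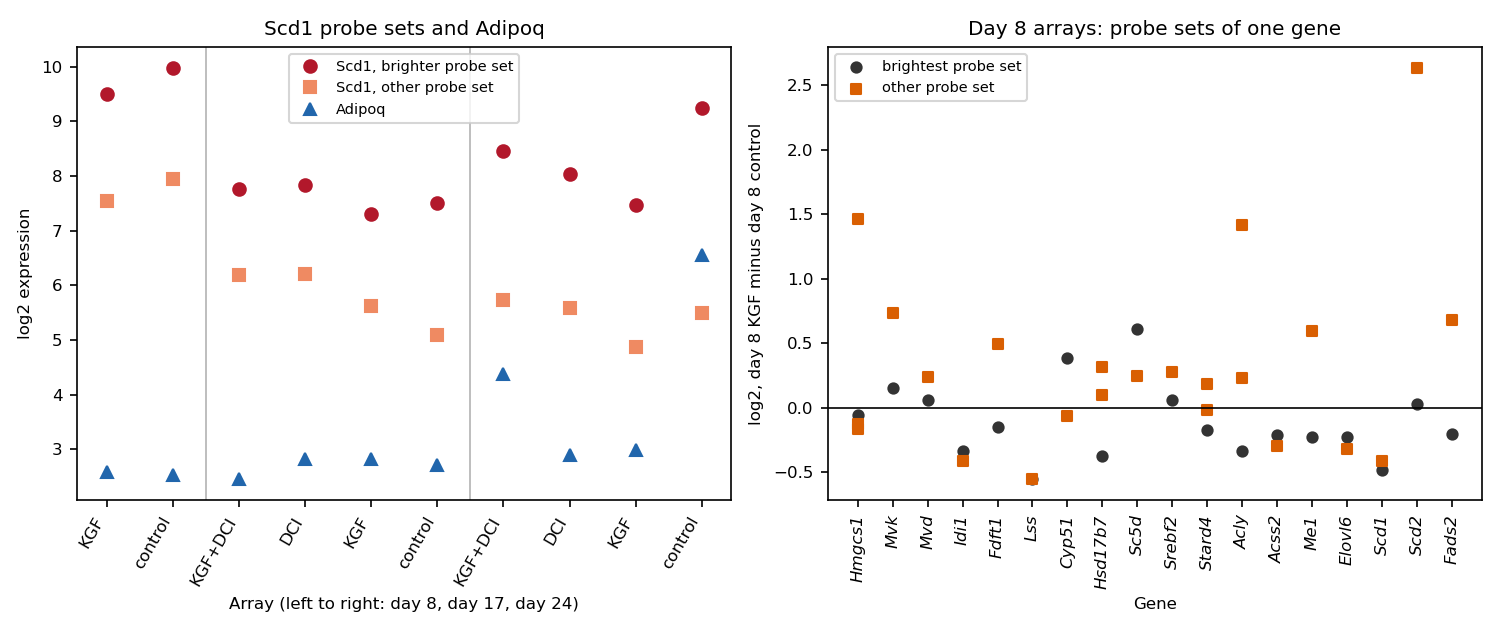
Left, log2 expression on each array (1 point per array, grouped by day) of both Scd1 probe sets and of Adipoq. The brighter Scd1 probe set and Adipoq are high on the day 24 control array and the other Scd1 probe set is not. At day 8 the brighter Scd1 probe set is high and Adipoq is not. The adipocyte markers Fabp4, Lep and Pparg, not shown, were not highest on the day 24 control array. Right, the log2 difference of the day 8 KGF array minus the day 8 control array for genes with several probe sets of mean level 6 or more, for the brightest probe set used here (black circles) and the others (orange squares), with Scd2, Hmgcs1 and Acly having another probe set past 1.

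More genes passed for DCI at day 24 than at day 17. In a fit of the 8 arrays of days 17 and 24 with a DCI term for each day, 14 genes rose and 1 fell with DCI at day 24, against 7.99% and 11.4% of all genes. At day 17, 7 rose and none fell, against 5.63% and 4.01%. The squalene and sterol steps made up most of the gap, with 7 of 11 genes higher at day 24 and 2 of 11 at day 17. Those 7 were Lss (0.64 ± 0.097), Msmo1 (0.54 ± 0.067), Sqle (0.52 ± 0.071), Fdft1 (0.41 ± 0.083), Dhcr7 (0.40 ± 0.098), Cyp51 (0.39 ± 0.098) and Sc5d (0.38 ± 0.090). At day 17 the 7 calls were Acss2 (0.93 ± 0.13), Insig1 (0.54 ± 0.090), Mvd (0.53 ± 0.10), Tm7sf2 (0.43 ± 0.11), Lss (0.39 ± 0.097), Me1 (0.35 ± 0.077) and Scd2 (0.26 ± 0.054). All of those but Tm7sf2 also passed at day 24, together with Idi1 (0.55 ± 0.10) and Pmvk (0.36 ± 0.099), and Fads2 was the gene that fell (-0.39 ± 0.095). The test of the difference between the days is stricter. It passed for 1 of 31 genes upward, Msmo1, and for none downward, against 0.533% and 1.97% of all genes. The Msmo1 difference with DCI was 0.54 ± 0.067 (adjusted p = 0.000371) at day 24 and -0.021 ± 0.067 (adjusted p = 0.917) at day 17, and the change between the days was 0.56 ± 0.094 (adjusted p = 0.0156). It did not pass without the DCI array of day 17 (adjusted p = 0.0783), its array with KGF and DCI (0.0918), the KGF array of day 24 (0.0841) or the one with KGF and DCI (0.088), though it stayed between 0.51 and 0.58. Without the day 24 DCI array 3 genes passed upward, and without the day 24 KGF array 1 passed downward. For the other genes a difference between the days did not pass. The count at day 17 was 1 without the day 17 DCI array, and 3 without the day 17 control array or the array with KGF and DCI. The count at day 24 was 7 without the day 24 KGF array and 8 without the array with KGF and DCI, and the Fads2 call was lost without the day 24 control, KGF or DCI array. Acss2 at day 17, and Mvd, Sqle, Lss, Msmo1, Insig1 and Scd2 at day 24, passed whichever of the 8 arrays was left out. The day 17 calls of Mvd and Scd2 rest on their brightest probe sets. There the other probe sets overlapped for Mvd and went the other way for Scd2.

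**Figure D5:**
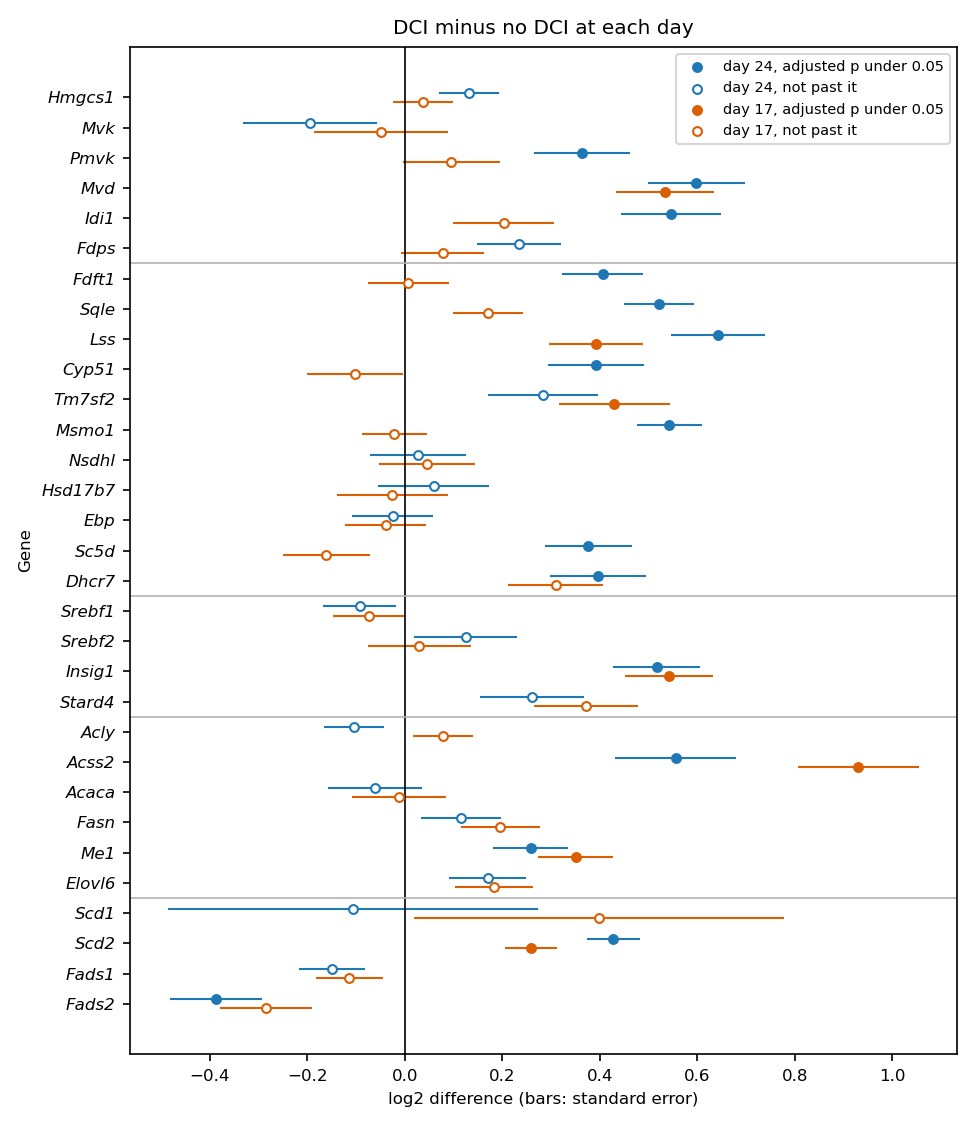
DCI minus no DCI on the log2 scale for each gene at day 24 (blue) and day 17 (orange), from the limma fit of the 8 arrays of those days, with standard errors as bars. Filled points passed an adjusted p under 0.05. Msmo1 reads 0.54 at day 24 and -0.021 at day 17, Acss2 0.56 and 0.93.

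KGF passed for none of the 31 genes in the additive limma fit, against 0.00550% of all genes, and no member had an unadjusted p under 0.05, while 1466 genes of the array did. The KGF differences ran from -0.42 for Scd1 to 0.19 for Sc5d, with a median of -0.0081, 15 above 0 and 16 below. For Fasn the KGF difference was -0.012 ± 0.054 (adjusted p = 0.976), with a 95% interval of -0.13 to 0.11. Apart from Scd1, whose interval was -0.96 to 0.11, the 95% intervals of the genes lay within -0.29 to 0.44. The KGF by DCI interaction passed for none of 31 genes, and 0% of all genes, with 1 member (Scd1, 1.16 ± 0.47 (adjusted p = 1)) and 267 genes at an unadjusted p under 0.05. The KGF by day interaction passed for none of 31, and 0% of all genes, with 0 members and 932 genes at an unadjusted p under 0.05. The fits of interactions have 3 residual degrees of freedom. The cultures with both treatments can also be set beside the control of the same day as single arrays, without a replicate check. At day 24, 5 genes were at least 1.5-fold higher with KGF and DCI and 1 was lower, against 6.13% and 6.62% of all genes. The 5 were Insig1 (0.76), Lss (0.78), Msmo1 (0.67), Mvd (0.66) and Sqle (0.60), and the 1 was Scd1 (-0.78), which rests on its high day 24 control value. The other Scd1 probe set differed by 0.24, in the opposite direction. At day 17, 2 were higher and none lower by that measure, against 5.16% and 3.05% of all genes, namely Acss2 (0.97) and Mvd (0.60). The members' median difference was 0.26 at day 24 and 0.14 at day 17, beside -0.014 and 0.0041 over all genes. These comparisons share the control arrays with the comparisons above.

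Genes of neighbouring lipid pathways were counted in the same fits. At day 17, 11 of the 13 measured genes of fatty acid oxidation, uptake and lipid droplets were higher than at day 8 and none was lower, with a median of 1.33, the opposite direction to the 31 genes, and without the day 8 control array the count was also 11. Over all genes 21.4% were higher and 21.0% lower. The scavenger receptor gene Cd36 differed by 4.88 ± 0.14 (adjusted p = 1.16e-09), the lipase inhibitor gene Angptl4 by 4.80 ± 0.076 (adjusted p = 2.56e-11), and Pdk4, which restrains pyruvate oxidation, by 4.28 ± 0.097 (adjusted p = 2.67e-10). Of 8 measured genes of sterol efflux, storage and oxysterols, 7 were higher and none lower, and 3 without the day 8 control array. The 3 were the cholesterol exporter Abca1 (3.46 ± 0.10 (adjusted p = 1.6e-09)), the oxysterol-making Ch25h (2.87 ± 0.19 (adjusted p = 7.26e-07)) and Cyp27a1 (1.03 ± 0.13 (adjusted p = 0.000102)). Without that array Cd36 differed by 5.07, Abca1 by 3.41, Ch25h by 2.43 and Cyp27a1 by 0.94. Abca1 read 10.40 with KGF and DCI, 10.58 with DCI, 10.88 with KGF and 10.88 in the control at day 17, against 7.51 with KGF and 7.51 in the control at day 8. The other lists were mixed over the same interval: 3 higher and 1 lower of 8 for sterol sensing and SREBP processing, 1 and 1 of 7 for the isoprenoid branch, 2 and 4 of 14 for fatty acid activation, elongation and carbon supply, and 3 and 3 of 13 for glycerolipid and phosphatidylcholine synthesis. Without the day 8 control array these were 2 and 1, 1 and 1, 1 and 4, and 3 and 2. Among these, the acyl-CoA synthetase gene Acsl3 differed by -1.18 ± 0.15 (adjusted p = 0.000101), Acsl5 by 1.32 ± 0.084 (adjusted p = 4.7e-07), the lysophosphatidylcholine acyltransferase gene Lpcat1 by -1.25 ± 0.087 (adjusted p = 1.03e-06) and the phosphatidylcholine synthesis gene Pcyt1b by -1.89 ± 0.23 (adjusted p = 7.06e-05). Between days 17 and 24 the counts, higher and lower, were 1 and 2 of 8 for sterol sensing, 1 and 2 of 8 for efflux, 0 and 4 of 7 for the isoprenoid branch, 4 and 1 of 14 for activation and elongation, 3 and 1 of 13 for glycerolipid synthesis, and 4 and 2 of 13 for oxidation and uptake. Over all genes 14.8% were higher and 22.5% lower, and most of these counts lay near those shares. Lpcat1, whose product remodels surfactant phosphatidylcholine, differed by -0.67 ± 0.066 (adjusted p = 3.09e-05) between days 24 and 17, and the choline phosphotransferase gene Chpt1 by 0.51 ± 0.078 (adjusted p = 0.000587).

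With DCI, 4 of the 8 efflux, storage and oxysterol genes fell and 1 rose, against 8.09% and 7.27% of all genes. Lipa, the lysosomal lipase that frees stored cholesterol, differed by -0.74 ± 0.093 (adjusted p = 0.000444), Cyp27a1 by -0.65 ± 0.10 (adjusted p = 0.00156) and Abca1 by -0.56 ± 0.076 (adjusted p = 0.000681). Abca1 read 9.86 with KGF and DCI, 9.95 with DCI, 10.57 with KGF and 10.71 in the control at day 24, so that at both days its DCI arrays were below those without DCI. In the oxidation, uptake and droplet list 1 rose and 3 fell of 13, with the nuclear receptor gene Ppara at 0.52 ± 0.099 (adjusted p = 0.0051), Cd36 at -0.96 ± 0.10 (adjusted p = 0.000145) and the droplet coat gene Plin2 at -0.72 ± 0.061 (adjusted p = 3.06e-05). Dgat2, for the enzyme of the last step of triglyceride synthesis, rose by 0.71 ± 0.087 (adjusted p = 0.000357), in a glycerolipid list with 2 higher and 1 lower of 13. It read 8.44 with KGF and DCI, 8.45 with DCI, 7.96 with KGF and 7.87 in the control at day 24, and 8.60 with KGF and DCI, 8.46 with DCI, 7.70 with KGF and 7.56 in the control at day 17. The counts, higher and lower, were 0 and 1 of 8 for sterol sensing and SREBP processing, 0 and 0 of 7 for the isoprenoid branch, and 1 and 1 of 14 for activation and elongation. The counts of these 3 lists lay near the shares over all genes. KGF passed for no gene of these 6 lists.

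Markers of other cell types moved in the same comparisons. With DCI 10 of 10 macrophage markers fell, with a median of -3.03, and no marker on these arrays has a true zero. Their median level was 5.42 with KGF and DCI, 6.02 with DCI, 9.17 with KGF and 9.62 in the control at day 24. At day 17 it was 7.27 with KGF and DCI, 7.44 with DCI, 9.49 with KGF and 9.60 in the control, and at day 8 it was 4.64 with KGF and 4.42 in the control. All 10 also were higher at day 17 than at day 8, where the sterol genes were lower. The fall with DCI passed for 10 of 10 on each day, and for 7 of 10 it was larger at day 24. Abca1, Cd36, Lipa, Plin2 and Cyp27a1, named above, are also expressed by macrophages. All 5 glucocorticoid response genes rose with DCI, with a median of 1.52. Of the 8 epithelial markers 5 rose and 1 fell with DCI (median 0.37), and 5 were higher and 3 lower at day 17 than at day 8. Proliferation markers were lower at day 17 than at day 8 for 5 of 5 (median -0.87), lower at day 24 than at day 17 for 5 of 5 (median -1.74), and lower with DCI for 3 of 5. Over all genes 7.27% rose and 8.09% fell with DCI. At day 17 21.4% were higher and 21.0% lower than at day 8, and 22.5% were lower at day 24 than at day 17. The day 17 against day 8 counts of the macrophage, epithelial and proliferation markers were the same without the day 8 control array.

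Markers of visceral endoderm and liver, such as the fetal serum protein gene Afp and the apolipoprotein gene Apob, moved with DCI in different ways on the later days. At day 24, 5 of 9 fell with DCI and 2 rose (median -0.88), against 11.4% and 7.99% of all genes. At day 17, 7 of 9 rose and none fell (median 1.06), against 5.63% and 4.01%. The change between the days passed downward for 7 of 9 (median -1.61), against 1.97% of all genes. Their median level at day 24 was 9.25 with KGF and DCI, 9.09 with DCI, 9.59 with KGF and 10.04 in the control. At day 17 it was 9.89 with KGF and DCI, 9.94 with DCI, 7.91 with KGF and 8.12 in the control, and at day 8 it was 5.94 with KGF and 5.93 in the control. By the additive fit 5 of 9 were higher at day 17 than at day 8 and none lower, against 21.4% and 21.0% of all genes. Without the day 8 control array 4 of 9 were higher. That fit takes 1 DCI difference for both later days, which did not hold for 7 of 9. At day 17 Apob read 7.21 in the control and 6.96 with KGF, against 8.30 and 8.07 at day 8, but the fit gave -0.37. Cubn read 5.99 and 5.51, against 5.31 and 5.27, and the fit gave 1.15. These counts therefore do not measure the change without DCI. In the remaining marker lists none fell with DCI in the additive fit, and 2 of 6 adipocyte, 2 of 5 steroidogenic, 1 of 5 neuron, 1 of 5 alveolar type II, 0 of 5 glial and 0 of 6 pluripotency markers rose. In that fit 7.27% of all genes rose and 8.09% fell. The part of the changes in all these markers in the values of the sterol and fatty acid synthesis genes was not tested.

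Most genes had further probe sets, which allow a check within the same arrays. Of the 31 genes, 22 had more than 1 probe set, 72 in all. For the genes that passed, the other probe sets with a mean of at least 6 had the same sign in 21 of 21 cases between days 17 and 8, and 15 of them passed. With DCI, taken over both days together, the counts were 9 of 9 and 4. Between days 24 and 17 they were 7 of 9 and 3. The second Acss2 probe set differed with DCI by 0.90, that of Idi1 by 0.34, and that of Lss by 0.73 (adjusted p = 0.0062, 0.0246 and 0.00719 over all probe sets). Those of Stard4 differed by 0.30 (adjusted p = 0.0135) and 0.18 (adjusted p = 0.324). The second Mvd probe set differed by 0.27 and did not pass (adjusted p = 0.192). Nor did those of Me1 (0.29, adjusted p = 0.153) and Scd2 (0.22, adjusted p = 0.812). For Fads2 the other probe sets differed by -0.10 (adjusted p = 0.744) and, with a mean of 5.97, by -0.18 (adjusted p = 0.539). Its fall with DCI thus passed by its brightest probe set alone. On the day 8 arrays some probe sets disagreed strongly. Another probe set of Scd2 read 9.76 with KGF and 7.13 in the control at day 8, while the brightest one read 12.85 with KGF and 12.82 in the control. Other probe sets of Hmgcs1 read 9.98 with KGF and 8.52 in the control and of Acly 9.26 with KGF and 7.85 in the control. These 3 of the 72 were at least 1 higher on the KGF array, none of the 31 used here was, and 481 of all 34945 probe sets with 1 symbol were (1.38%). The day 8 control array is the one whose control signals stood apart, and the part of that in these gaps was not tested.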

How the data were processed

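Gene expression was measured on 10 Affymetrix arrays of total RNA labelled with biotin, 1 for each of 10 conditions, per the labels. The deposited table holds log2 values of 45101 probe sets. The submitters' processing notes name RMA (background correction, quantile normalisation, summary over probes), and the labels name Bioconductor. The RMA version, the arrays normalised together and the genome build were not given in the sources used here. All 10 value columns belong to labelled samples (0 others). Of the probe sets, 34945 had 1 gene symbol, 932 several, 9160 none and 64 were controls. Genes took their brightest probe set by mean, without a filter. Fits used limma 3.58.1 (R 4.3.3) with eBayes and a mean trend, two-sided, Benjamini-Hochberg over 18193 genes. The additive fit (day, KGF, DCI) has 5 residual degrees of freedom, and interaction fits on the 8 later arrays have 3. All fits were run on simulated data with the same designs, independent noise and known changes. Those data cannot show what 1 array per condition, an unusual array or changes that are not additive do to the fits. The genes, the 6 neighbouring lists, the marker lists and the motifs were chosen with earlier results of these data known. Values per array are given, per role and contrast, for up to 4 genes that passed with the largest differences. Neighbouring genes are named at an adjusted p under 0.05 and a difference of at least 0.5, up to 3 per list. Promoters came from RefSeq (GRCm38.p6), matched by symbol. Alternatives were a trend-free or robust variance prior, dropping the dimmest 40% of genes, means of probe sets, every probe set, a second quantile normalisation, an adjusted p under 0.10, a 1.5-fold size, subsets of arrays and leaving out each array. Figures used matplotlib 3.10.9.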

Additional observations from a re-analysis of the deposited data

Results flagged for a closer look

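Msmo1 was picked out because its DCI difference changed between the days by a tested amount, 0.56 ± 0.094 (adjusted p = 0.0156) at day 24 relative to day 17. The arrays and alternatives under which that call was lost are given with it above and below. For 3 further genes the interaction did not pass. By their brightest probe sets, both DCI arrays changed sides of their untreated or KGF counterparts between days 17 and 24. Cyp51 read 8.72 with KGF and DCI, 8.54 with DCI, 8.29 with KGF and 8.19 in the control at day 24, and 8.38 with KGF and DCI, 8.44 with DCI, 8.42 with KGF and 8.61 in the control at day 17. Its DCI difference was 0.39 ± 0.098 at day 24 and -0.10 ± 0.098 at day 17, a change of 0.50 ± 0.14 (adjusted p = 0.111). For Sc5d the DCI difference was 0.38 ± 0.090 at day 24 and -0.16 ± 0.090 at day 17, a change of 0.54 ± 0.13 (adjusted p = 0.0636). Acly read 10.14 with KGF and DCI, 10.16 with DCI, 10.26 with KGF and 10.26 in the control at day 24, and 10.26 with KGF and DCI, 10.20 with DCI, 10.12 with KGF and 10.18 in the control at day 17. Its DCI difference was -0.10 ± 0.061 at day 24 and 0.078 ± 0.061 at day 17, a change of -0.18 ± 0.086 (adjusted p = 0.344). In the next brightest probe set of each gene this change of sides did not recur. For Acly (mean 10.16) the DCI arrays were above their counterparts at day 24 and below them at day 17, the reverse. For Sc5d (mean 7.52) they were below on both days. For Cyp51 (mean 7.61) they were above at day 24. At day 17 DCI alone read 7.35 for Cyp51, above the control at 7.21, while KGF with DCI was below KGF. No group holds enough arrays for a search for outlying arrays within it.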

How the results depend on the processing

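No paired analysis was possible because the labels give no replicate numbers and each condition has 1 array. Arrays matched by day and by the other treatment are compared through the terms of the additive fit. With array numbers this small, precision is limited by the arrays, and dim probe sets are compressed. For day 17 against day 8, 25 to 29 genes were lower under every alternative, 28 to 29 with an array left out, and 0 were higher. An alternative chosen after seeing the data, the list counts of that comparison without the day 8 control array, moved the efflux list to 3 higher of 8, against 7 with all arrays. KGF and both of its interactions gave 0 calls under all alternatives run. With DCI, a 1.5-fold size left 1 gene higher and 0 lower, and means of probe sets left 0 lower. Leaving out an array gave 6 to 11 higher and 1 lower. For day 24 against day 17, a 1.5-fold size left 2 higher and 1 lower, and the 6 arrays without DCI gave 2 higher. Leaving out an array gave 3 to 8 higher and 5 to 8 lower. For DCI at day 17, 3 genes were higher without a variance trend, 4 with means of probe sets and 1 at a 1.5-fold size, and 1 was lower with every probe set. Leaving out an array gave 1 to 7 higher. For DCI at day 24, 9 were higher without a trend, 9 with means of probe sets and 2 at a 1.5-fold size, each with 0 lower. Leaving out an array gave 7 to 15 higher and 0 to 1 lower. For the change in the DCI difference between the days, 0 were higher without a trend, 0 with means of probe sets, 0 at a 1.5-fold size, 2 at an adjusted p under 0.10 and 3 with every probe set. Leaving out an array gave 0 to 3 higher and 0 to 1 lower. Single genes turned in sign only where other probe sets were used, and not in any of 704 values with an array left out, of which 616 kept their call and 88 lost it. Of 95 values from other probe sets, 38 kept the call, 46 lost it and 11 turned, and of 590 from other settings 506, 83 and 1. For day 17 against day 8, other probe sets gave 0.12 for Fdps (mean level 2.15) and 0.067 for Fdft1 (mean level 4.85), both dim. For day 24 against day 17 they gave -0.17 for Hmgcs1 (mean level 10.91), 0.13 for Acaca (3.39), and 0.12 and 0.077 for Scd2 (8.30 and 4.99). For DCI at day 17 Scd2 was -0.27 and -0.28 by its other probe sets and -0.095 by their mean with the first. For DCI at day 24 other probe sets gave -0.090 for Fdft1 (mean level 4.85), -0.011 for Lss (4.68) and -0.12 for Sc5d (7.52). The cause of these changes was not tested.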
